A study of Mus musculus with 472 samples.

Results

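The wells described here are the poor wells of the posterior meninges at 18 months, that is wells in which fewer than 500 genes were counted, set against the wells of the same group with 500 or more. There were 59 low-gene wells, 45 titled by chip position and 14 by barcode, against 67 and 39 kept wells. One more posterior 18-month column was left out because no gene in it was at 0, and 461 of the series' 472 columns held usable counts. The number of genes counted chose the wells, so depth, genes per well and every gene's level in this contrast are descriptions with no test. The question asked of these wells was which transcripts are as common in poor wells as in kept ones, since RNA released into the cell suspension can enter a well without its cell.

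The mice were male C57BL/6 animals (written C57B6 in the series' design), pooled 6 to an age of 3 or 18 months. Meninges were dissected from over the anterior or the posterior cortex, dispersed, and dispensed on the ICELL8 system, which places cells into the wells of a chip for reverse transcription. All 4 groups share strain, sex and protocol, and differ by age and region alone as far as the labels say. Each age was 1 pool with no animal named, so a group is 1 sample, wells are not replicates of a condition, and no p-value or standard error can be drawn from them. Column names mark wells titled by chip position as full-length libraries and wells titled by barcode as 3-prime libraries. These position and barcode sets were never summed together, and of the anterior 18-month group position wells alone are compared. In 54 posterior position wells the title says 18 months and the age field 3 months. These wells were grouped by title, and 24 of the 45 low-gene and 30 of the 67 kept position wells are among them. The anterior 18-month position group has the same conflict in 10 of its 41 low-gene and 18 of its 57 kept wells. In the 18-month position titles the age field is 3 months where a chip coordinate contains the digit 3, and 18 months elsewhere. Leaving these wells out therefore selects wells by chip coordinate.

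The leptomeninges are the pia, which lies on the brain surface, and the arachnoid, whose barrier cells and fibroblasts secrete matrix and carrier proteins into the cerebrospinal fluid. Ptgds, the prostaglandin D2 synthase that carries lipids in that fluid, is among the best known transcripts of the arachnoid. When cells break during dissection, their abundant cytoplasmic and mitochondrial RNAs enter the liquid, while a nuclear RNA such as Malat1 is held in the nucleus. A well's reads can therefore mix what its cell held and what the liquid held. A gene's share in poor wells does not separate these sources. The labels do not say whether any well was without a cell, and a part of free RNA in these wells was not tested.

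In the position set, the 45 low-gene wells held 181227 counts in all and the 67 kept wells 2319406. A low-gene well had at most 26232 counts (median 2773) and between 56 and 474 genes (median 250). Kept wells had 1221 to 175189 counts (median 19338) and 511 to 5075 genes (median 1038). The barcode set had 14 low-gene wells with 152205 counts (1534 to 31674 per well, all under 500 genes), and 39 kept wells with 2579478 counts (8630 to 279516 per well) and 516 to 2453 genes. Totals of the sets overlapped although the gene numbers could not. Mean depth was 8.60 times higher in kept than in low-gene position wells and 6.08 times higher in the barcode set.

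**Figure D1:**
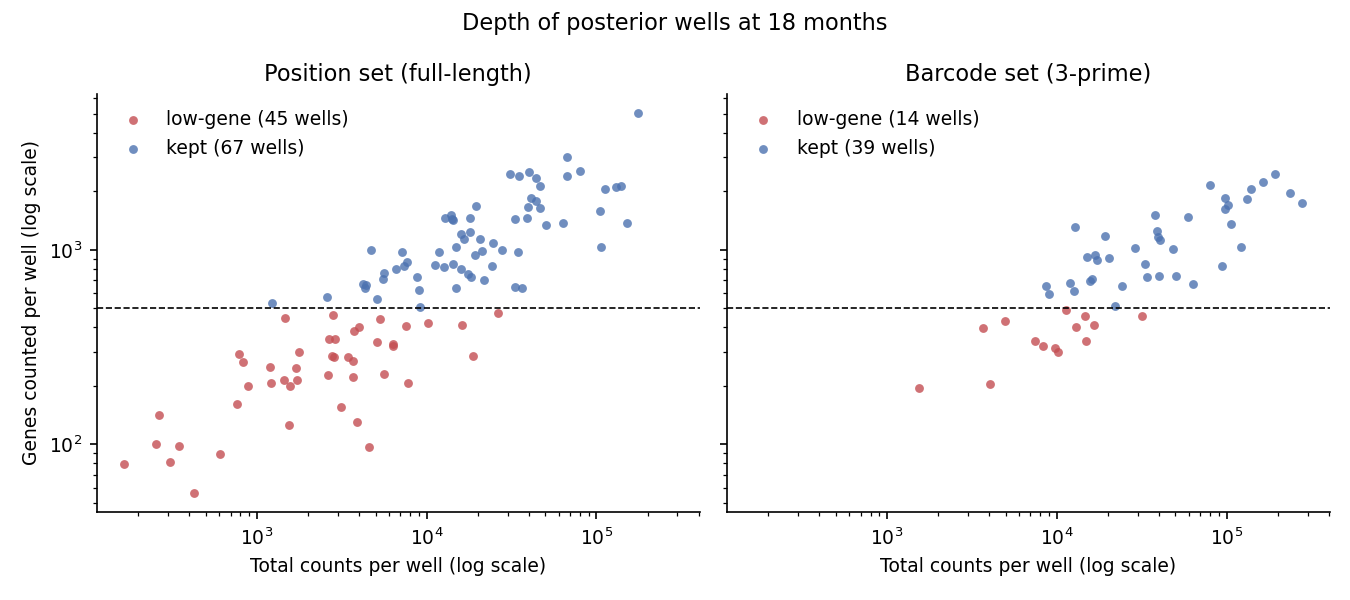
Total counts (x axis, log scale) and genes counted (y axis, log scale) of each posterior 18-month well, position set on the left and barcode set on the right, with low-gene wells in red and kept wells in blue. The dashed line is the limit of 500 genes, and low-gene wells reach 26232 counts (position) and 31674 counts (barcode), above the shallowest kept wells at 1221 and 8630.

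Near the limit the wells were few. The position wells just inside it had 460 genes in 2825 counts and 474 genes in 26232 counts, with 21 and 54 Ptgds counts, and those just outside had 511 genes in 9101 counts and 534 genes in 1221 counts, with 24 and 3. In the barcode set, wells with 455, 458 and 492 genes had 31674, 14713 and 11411 counts, and the nearest kept well had 516 genes in 21952 counts.

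Barcodes show how far a low-gene well is from the well it could be misread as. Barcodes have 11 bases, and for the 14 low-gene wells the nearest kept barcode of the group differed at 3 to 6 positions, against 3 to 7 between kept wells. In the closest pair, 3 bases apart, the low-gene well had 1534 counts and 11 Ptgds counts beside a kept well of 132777 counts. In a pair 4 bases apart the poor well had more Ptgds than its neighbour in sequence, with 528 of 14713 counts against 79 of 28875. No barcode was shared between groups.

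What filled the poor wells differed from the kept wells in both sets. In the position set, 12 listed predicted genes that match satellite repeats, with Gm21738 added after its values were seen, took 54.5% of low-gene counts and 65.7% of kept counts. Gm10800 (chromosome 2, 98666547 to 98667301, GRCm38) was the only gene counted in every low-gene position well. It took 32.8% of low-gene counts and 40.0% of kept counts, and between 0.113% and 55.5% of a single low-gene well. In the barcode set the same genes took 0.0171% and 0.00147%, and the low-gene value came from 1 well.

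Mitochondrially encoded genes took a larger share of poor wells. They made up 6.41% of low-gene and 3.16% of kept position counts, 2.03 times as much (95% interval 1.99 to 2.07), with medians per well of 5.33% and 2.76%. The barcode set had 38.9% and 25.3% (ratio 1.538, interval 1.525 to 1.551), with medians of 34.9% and 27.2%. Single wells overlapped widely, from 0.674% to 37.5% in low-gene and from 0.219% to 23.1% in kept position wells. All intervals here are 95% exact intervals. Those of ratios cover counting error alone, because amplified reads that carry no molecular tag can repeat 1 molecule. Those of shares of wells take the wells of 1 pool as independent draws, and hold no spread between animals. The ribosomal RNA gene mt-Rnr2 had 11157 CPM (summed counts scaled to a total of 1e6) in low-gene and 5251 CPM in kept position wells, and mt-Co1, a subunit of cytochrome c oxidase, 7366 and 3879 CPM. Both were counted in nearly as many wells, mt-Rnr2 in 43 of 45 low-gene and 67 of 67 kept wells and mt-Co1 in 41 and 66.

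The 7SL RNA genes, whose product is the RNA core of the signal recognition particle, also took a larger share of poor position wells. Rn7s1 (chromosome 12, 69159295 to 69159594) and Rn7s2 (chromosome 12, 69361182 to 69361481) are near-identical, so their counts cannot be told apart and are given together. Both had the same number of counts in 42 of 45 low-gene and 56 of 67 kept wells, so the same reads may have been counted for both. The summed shares could then be up to double those of the reads, and Rn7s2 alone took 0.450% and 0.104%. Together they took 0.902% of low-gene and 0.208% of kept counts, 4.33 times as much (interval 4.09 to 4.58), and each was counted in 41 of 45 low-gene and 62 of 67 kept wells. The median of the paired share was 0.979% per low-gene well and 0.181% per kept well. In the barcode set they had 0 counts in low-gene wells, where a count of 0 allows up to 19.7 CPM over the 14 wells, and 0.00636% in kept wells. Lars2 and Gm42418, both known to collect reads from ribosomal RNA, took 2.181% and 0.928% of the position sums and 1.325% and 1.451% of the barcode sums.

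**Figure D2:**
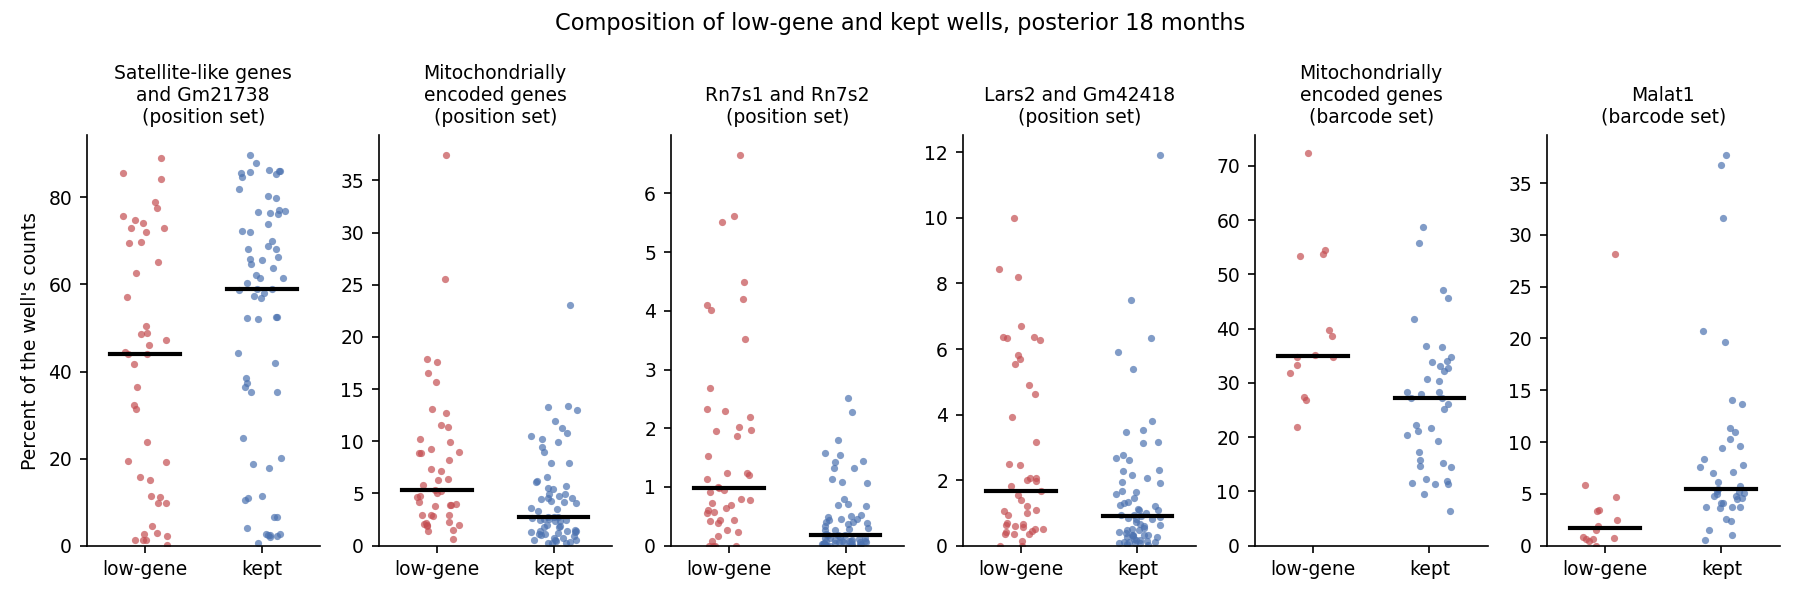
Percent of each well's counts (y axis) in gene groups for low-gene wells (red) and kept wells (blue) of the posterior 18-month group, 4 panels of the position set and 2 of the barcode set, with a black bar at the median. Medians of low-gene against kept wells are 44.1% and 59.0% for satellite-like genes, 5.33% and 2.76% for mitochondrially encoded genes and 0.979% and 0.181% for Rn7s1 and Rn7s2 in the position set, and 1.699% and 5.50% for Malat1 in the barcode set.

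Genes were then sorted by fold. A gene counted as measured with at least 50 CPM in either kind of well and at least 5 counts seen or expected in the summed low-gene wells. It was called as common when the ratio of low-gene to kept wells was within 2-fold both by summed CPM and by the mean of per-well CPM, and lower or higher when both passed 2-fold. Of 2136 measured position genes, 12.9% were as common, 14.6% lower and 47.3% higher, and for 25.2% the averages disagreed. Of 3760 measured barcode genes, 11.5% were as common, 54.8% lower, 20.9% higher and 12.8% in disagreement. The wells were chosen in this contrast, so nothing is read from these shares. The position split also moved with the scaling. On totals without the listed satellite-like genes 33.2% of 5066 measured genes were lower and 33.1% higher. Among the 870 genes with at least 50 CPM in kept wells, an alternative chosen after the data were seen, 35.9% were lower and 8.16% higher. Of the genes called higher, 753 of 1011 and 691 of 784 were counted in only 1 or 2 low-gene wells, and 940 of the 1011 were under 50 CPM in kept wells and so were measured through the low-gene wells alone. Of the measured barcode genes, 1612 had no count in the 14 wells.

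**Figure D3:**
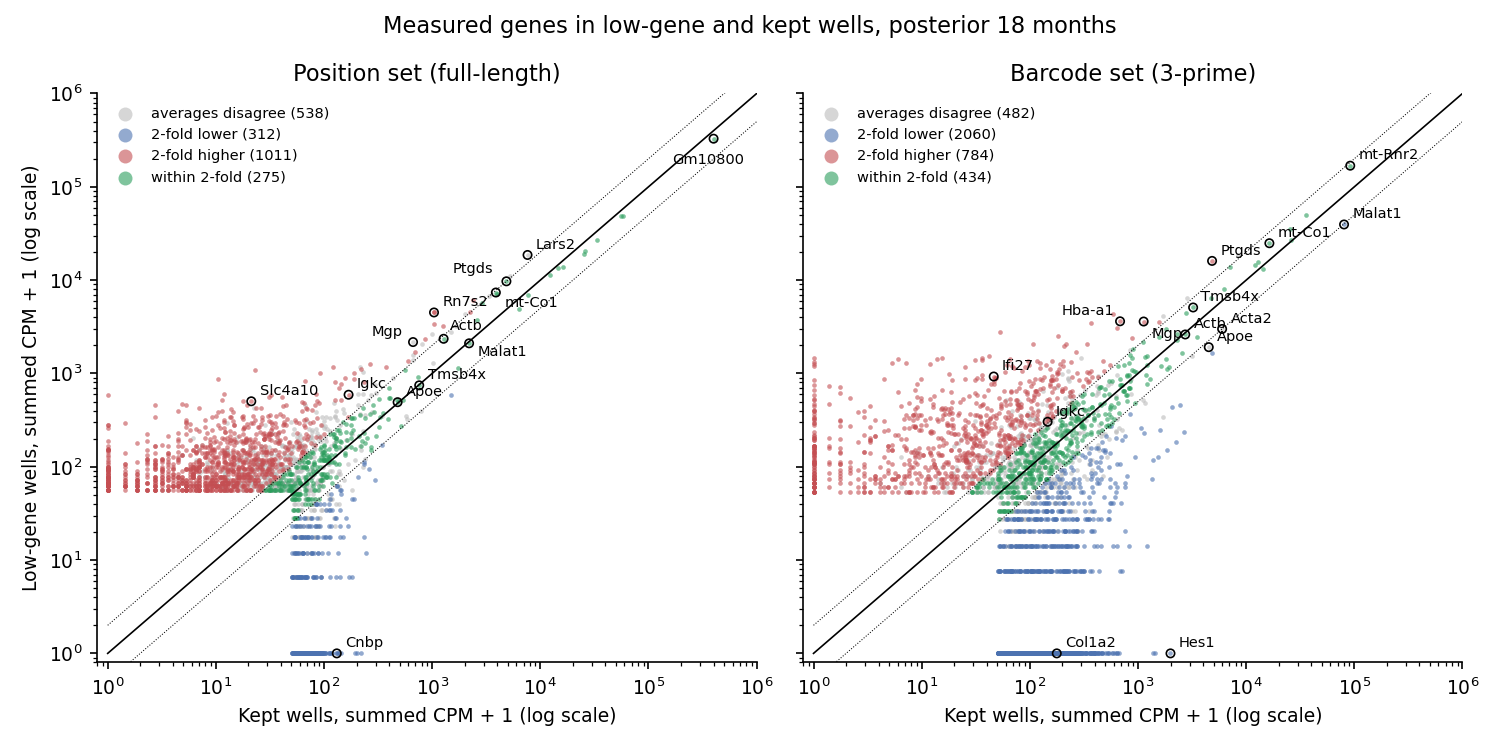
Summed CPM plus 1 in kept wells (x axis, log scale) and low-gene wells (y axis, log scale) of each measured gene, position set on the left and barcode set on the right, coloured by call, with a line at equal values and dotted lines at 2-fold. Of the genes called higher, 753 of 1011 in the position set and 691 of 784 in the barcode set were counted in only 1 or 2 low-gene wells.

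Counting wells in place of folds gave a short list. Among position genes, 35 had a count in at least 50% of the low-gene wells: 11 mitochondrially encoded, 11 satellite-like, 6 other predicted genes, and Ptgds (37 wells), Malat1 (31), Actb (28), Lars2 (43), Rn7s1 and Rn7s2 (41 each) and Rn7s6 (25). Of the barcode genes 63 did so, of which 14 were mitochondrially encoded and 27 carried a gene name outside the ribosomal protein and predicted genes. They were led by Ptgds and Malat1 (13 of 14 wells each), the actin gene Actb and its monomer-binding partner Tmsb4x (11 each), and Apoe, the chaperone Hsp90ab1 and the scaffold Ahnak (10 each). Most other transcripts were sporadic. Of 6496 genes with any count in low-gene position wells 4590 were seen in exactly 1 well, and of 3075 in the barcode set 2186 were.

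Ptgds lies on chromosome 2 at 25466709 to 25470046 (GRCm38, minus strand). Among position wells it was counted in 37 of 45 low-gene wells (82.2%, Clopper-Pearson interval 68.0% to 92%) and in 67 of 67 kept wells. A low-gene well had a median of 10 Ptgds counts (mean 39.11) and a kept well 2 to 2453 (median 55, mean 168.1), so the absolute counts were mostly lower in poor wells. As CPM of the same well the order turned, with 0 to 71180 CPM (median 3489) in low-gene wells and 82.7 to 112446 CPM (median 2637) in kept wells. Summed, these were 9712 and 4856 CPM, a log2 ratio of 1.00 (0.93 to 1.07) that sits at the 2-fold limit, and 0.52 by the mean of per-well CPM. After thinning every well to 1191 counts, which left out 11 low-gene wells and no kept well, the expected share of wells with Ptgds was 83.8% in low-gene and 83.7% in kept wells. The share with a count was therefore level at matched total counts. Satellite-like genes and Gm21738 made up a median of 44.1% of a low-gene and 59.0% of a kept well, so depth outside them was not matched.

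The barcode set had Ptgds in 13 of 14 low-gene wells (92.9%, interval 66.1% to 99.8%) and 38 of 39 kept wells. Counts per well ran from 0 to 878 (median 94) in low-gene and from 0 to 2146 in kept wells, overlapping over that range although kept wells were 6.08 times deeper on average. Per-well levels were 0 to 35887 CPM (median 9981) and 0 to 55241 CPM (median 2736), and the summed levels 16070.4 and 4839 CPM gave a log2 ratio of 1.73 (1.669 to 1.79). Thinned to 5589 counts, 90% of 10 low-gene and 92.9% of 39 kept wells would have Ptgds. Among the 27 widespread named genes of this set, Ptgds had one of the smallest gaps in absolute counts, with a mean of 174.7 per low-gene and 320.1 per kept well, 1.83 times as many. For comparison, that gap was 6.36 times for Actb, 12.4 times for Malat1 and 28.6 times for Tagln, an actin-binding protein of smooth muscle. In the position set the gap did not set Ptgds apart. It was 4.298 times there, rank 17 from the smallest among 35 widespread genes, beside a median of 4.374 and 4.66 for Actb.

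Ptgds levels depended on which wells were summed. In the position set the log2 ratio was -0.01 when the limit was set at 300 genes, 1.89 at 1000 genes, 0.41 without the wells of conflicting age, and 0.67 on totals without the listed satellite-like genes. The share of low-gene position wells with Ptgds lay between 71.1% (2 or more counts required) and 89.6% (limit of 1000 genes) over the alternatives tried.

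**Figure D4:**
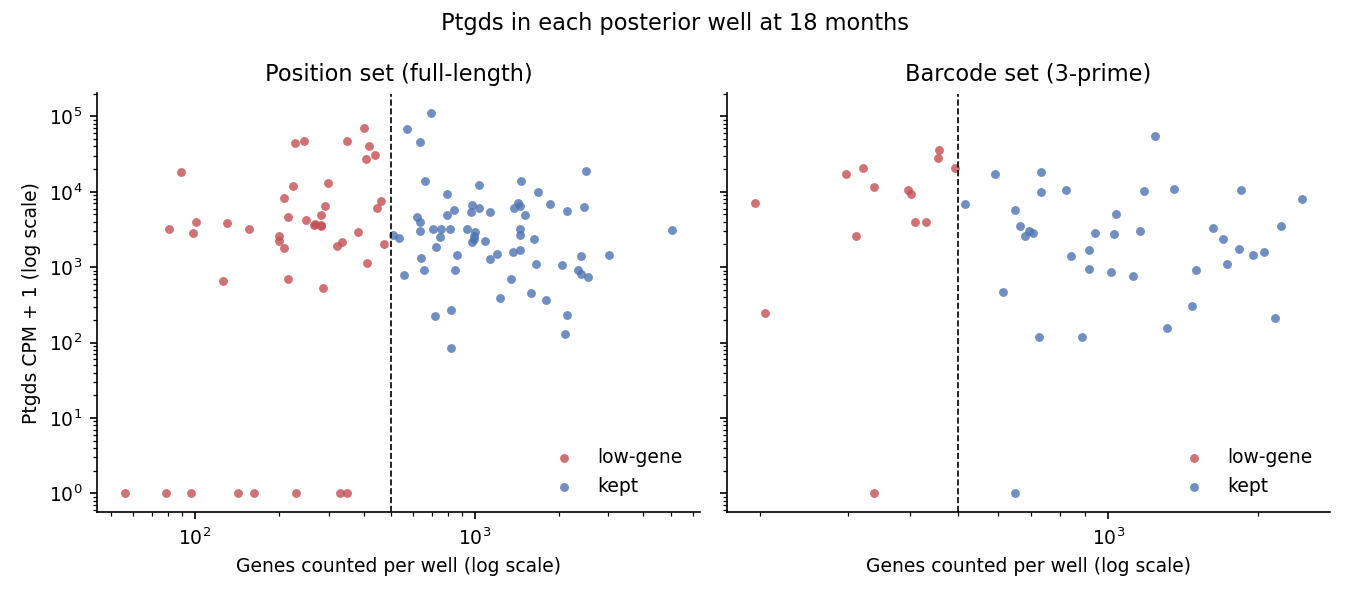
Ptgds CPM plus 1 (y axis, log scale) against the genes counted (x axis, log scale) in each posterior 18-month well, low-gene wells in red, kept wells in blue, and a dashed line at 500 genes. Medians are 3489 CPM (low-gene) and 2637 CPM (kept) in the position set and 9981 and 2736 CPM in the barcode set, and the 8 position and 1 barcode low-gene wells and 1 kept barcode well without a count lie at 1 on the y axis.

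The gene bands show the same without the limit. Position wells with under 200 genes had Ptgds in 8 of 13 wells (median 2562 CPM), those with 200 to under 350 genes in 20 of 23 (3641 CPM), those with 350 to under 500 in 9 of 9 (7434 CPM), those with 500 to under 1000 in 32 of 32 (2987 CPM) and those with 1000 or more in 35 of 35 (2194 CPM). Barcode wells with 350 to under 500 genes also had the highest band median among bands of more than 1 well, at 10624 CPM, against 2853 CPM for 500 to under 1000 genes and 2362 CPM above that. The 8 position wells without Ptgds had a median of 1714 and at most 6333 counts, and 6 of them were deep enough to expect over 3 Ptgds counts at the summed level of the low-gene wells. Ptgds was uneven among poor wells.

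Satellite-like content moved with the Ptgds level. The 10 low-gene position wells with under 10% satellite-like counts had Ptgds in 9 wells at a median of 28904 CPM, the 18 wells with 10% to 50% in 15 at 3624 CPM, and the 17 wells with 50% or more in 13 at 1809 CPM. Counted outside the satellite-like genes and Gm21738, those medians were 29334, 5397 and 7070 CPM, so the first group still stood apart. Kept wells split the same way had 7030, 6550 and 5033 CPM. The part of satellite-like counts in the Ptgds level was not tested beyond these values.

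Ptgds was also counted in wells with macrophage markers. Of 20 kept position wells with at least 3 of the 14 listed macrophage and microglia markers all 20 had Ptgds, at a median of 2859 CPM and 27552 counts, and the 47 other kept wells had 2637 CPM at 17908 counts. Among low-gene wells 5 had 3 or more of these markers, 4 of them with Ptgds (median 27385 CPM, 6335 counts), against 33 of 40 other low-gene wells (3373 CPM, 2208 counts). Among barcode wells Ptgds was counted in 2 of 2 such low-gene and 9 of 9 such kept wells. These markers did not isolate macrophages, since 16 of the 20 kept and 3 of the 5 low-gene position wells also had 2 or more arachnoid barrier or fibroblast markers other than Ptgds. By median CPM the other position wells were not above the macrophage-marker wells, and whether the counts in poor wells came from their own cell was not tested.

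Ratios between transcripts compare the wells' content without the totals behind each CPM. They are ratios of summed counts, and in low-gene position wells single wells held 23.6% of Ptgds and 35.9% of Actb counts. The source of the RNA was not tested from them. Position wells had 4.13 Ptgds counts per Actb count in low-gene and 3.81 in kept wells, and 1.318 and 1.252 per mt-Co1 count. Per Apoe count they had 19.8 and 10.2, and per Malat1 count 4.62 and 2.213. The barcode set had 6.15 and 1.77 per Actb count, 8.41 and 1.07 per Apoe count, 0.646 and 0.295 per mt-Co1 count and 0.407 and 0.0602 per Malat1 count. The ratio to Mgp was closer to level there, at 4.46 and 4.29 Ptgds counts per Mgp count, while it was 4.48 and 7.31 in the position set.

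Many cytoskeletal and translation genes, which are abundant in most cells, were as common. Of 15 such genes measured in the position set, 9 were as common, 2 higher and none lower, with a median log2 ratio of 0.37, where 12.9% of all measured genes were as common and their median was 1.78. The barcode set had 10 of 15 as common and 3 lower, with a median of -0.06, against 11.5%, 54.8% and -2.59 over all genes. Tmsb4x, thymosin beta 4, which binds actin monomers, had 745 CPM in low-gene and 758 CPM in kept position wells (18 of 45 and 48 of 67 wells). B2m, the light chain of MHC class I, had 519 and 540.2 CPM there and 1242 and 1210 CPM in the barcode set. Actb, beta-actin, had 2351 and 1275 CPM in the position set (28 and 62 wells) and 2615 and 2734 CPM in the barcode set (11 and 38 wells). Thinned shares of wells with Actb were 50.3% and 58.7% in the position set and 79.9% and 89.7% in the barcode set, lower in poor wells both times, whereas the Ptgds shares lay within 3 points of each other. Fth1, the ferritin heavy chain, had 905 and 736 CPM (log2 0.30, 0.06 to 0.53) and 1662 and 2546 CPM (-0.61, -0.80 to -0.43).

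A total of 1134 genes were measured in both sets, and 73 of them were as common in both. The 73 are 32.7% of the shared genes so called among position wells and 30.2% of those so called among barcode wells. What the calls of each set would share by their number alone was not worked out. No agreement between the sets is therefore read from these percentages. Both sets hold low-gene wells chosen by the same rule, and whether they share a cell suspension is not stated. The 73 include Actb, Tmsb4x, Fth1, B2m, the elongation factor Eef1a1, Hsp90ab1, the poly(A)-binding protein Pabpc1, the actin-severing protein Dstn, the amyloid precursor App, the IGF-binding protein Igfbp7 and Prg4, which encodes lubricin. Prg4, an arachnoid marker, was in 3 low-gene and 17 kept position wells at 104.8 and 137.5 CPM.

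Malat1, the nuclear long non-coding RNA, had unlike ratios in the sets, a difference that was not tested. Position wells had 2102 CPM (low-gene) and 2194 CPM (kept), a log2 ratio of -0.06 (-0.22 to 0.09), and thinned shares of 63.0% and 64.8%. Barcode wells had 39486 and 80360.4 CPM, a ratio of -1.03 (-1.06 to -0.99), with a median per-well share of 1.699% and 5.50%, and 61.3% of the low-gene counts came from 1 well. Neat1, another nuclear RNA, had 2 counts in low-gene barcode wells, or 13.1 CPM, and 585 CPM in kept wells. Position wells had 143.5 and 99.6 CPM.

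Other secreted and matrix genes did not behave as 1 group. Of 15 measured in the position set 7 were as common, 3 higher and none lower (median log2 0.15), where 12.9% of all measured genes were as common, 47.3% higher and 14.6% lower (median 1.78). Of 16 in the barcode set 3 were as common, 4 higher and 5 lower (median -0.69), where all genes had 11.5%, 20.9% and 54.8% (median -2.59). As for the cytoskeletal genes, this background is not matched for expression level. Mgp, matrix Gla protein, an inhibitor of calcification, was in 20 of 45 low-gene and 53 of 67 kept position wells at 2169 and 664 CPM (log2 1.705 by sums and 0.80 by per-well means). Barcode wells had it in 9 of 14 and 32 of 39 at 3600.4 and 1127 CPM (1.675 and 1.05), with 55.5% of the low-gene counts from 1 well. With the limit at 300 genes the position ratio of Mgp was -0.24. Apoe, the lipid carrier of macrophages and glia, had 491 and 478 CPM in the position set and 1912 and 4509 CPM in the barcode set. Clu, the extracellular chaperone clusterin, had 497 and 61.7 CPM in the position set, 51.1% of the low-gene counts being from 1 of 5 wells. The collagen gene Col1a2 had 23 counts in 4 low-gene position wells (126.9 and 107.4 CPM) and 0 counts in low-gene barcode wells, at least 8.95-fold lower than the 176.4 CPM of kept wells.

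Among genes called lower, the naming rule asked for a count in at least 25% of kept wells with no well holding over 50% of their counts, and 37 of the position genes met it. The barcode set led with Hes1, a Notch target repressor, at 0 of 14 low-gene and 20 of 39 kept wells and 1996 CPM in kept wells, at least 101.3-fold lower. Flna, the actin cross-linker filamin A, was at least 72.1-fold lower (0 and 21 wells), Crim1, a membrane BMP binder, at least 34.0-fold, and Ogn, the matrix proteoglycan osteoglycin, at least 32.4-fold. Those bounds set the 0 counts to 3 counts over the 14 wells. The position genes had smaller bounds. Cnbp, a nucleic acid binding protein, was at least 7.87-fold lower (0 of 45 and 22 of 67 wells), the mitochondrial protein gene Chchd2 at least 7.73-fold and the small GTPase gene Rac1 at least 5.47-fold. Even at matched total counts 50.9% of kept barcode wells had Hes1, 42.1% had Flna and 14.5% of kept position wells had Cnbp.

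Genes called higher that were spread over at least 3 wells, with no well over 50% of their counts, numbered 71 (position) and 18 (barcode) under the naming rule. Of those named next, Slc4a10, Slc13a3 and Ybx3 in the position set and Ifi27 and Tmem50a in the barcode set were under 50 CPM in kept wells. These passed the filter through the low-gene wells where they are high, so they had to be higher there. Slc4a10, a sodium bicarbonate transporter of the arachnoid and choroid plexus, had 91 counts in 6 of 45 low-gene wells and 47 in 8 of 67 kept wells, 502 and 20.3 CPM (log2 4.56, 4.11 to 5.17). In the barcode set it went the other way by sums, with 236.5 and 631 CPM (-1.41), and 97.2% of the low-gene counts came from 1 well. Slc13a3, a dicarboxylate transporter, had 48 counts in 4 low-gene wells and 10 in 2 kept wells (5.65, 4.94 to 7.09), and the Y-box protein gene Ybx3 had 54 and 25 counts (4.67, 4.08 to 5.53). Barcode wells were led by the interferon-induced Ifi27 (926 and 45.4 CPM, 4 of 14 and 5 of 39 wells), Tmem50a (828 and 45.7 CPM) and the proton pump subunit gene Atp6v0e (2523 and 181.4 CPM). Ldha, lactate dehydrogenase A, had 880.4 and 111.7 CPM there (6 and 11 wells) but 33.1 and 80.2 CPM in the position set.

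Marker lists describe which cell-type transcripts were counted in the poor wells. Among position wells, 12 low-gene wells had no class with 2 or more of its markers, 16 had 1 class and 17 had 2 or more, against 0, 4 and 63 kept wells. All 14 low-gene barcode wells had 2 or more classes, with a median of 3 against 4 in the 39 kept wells. Markers of several classes in 1 well are given as a count only, since doublets were not called and depth differs. The most frequent class in low-gene wells was arachnoid barrier, whose markers include Ptgds. It had 2 or more markers in 13 of 45 position and 11 of 14 barcode low-gene wells, against 47 of 67 and 29 of 39 kept wells. Of 6 measured barcode members 3 were higher, 2 as common and 1 lower. Fibroblast markers reached 2 in 10 position and 3 barcode low-gene wells, against 42 and 28 kept wells. Macrophage and microglia markers had a low median. Of 12 measured in the barcode set 8 were lower, 2 as common and none higher (median -4.30, or -2.36 with zeros set to the floor), where 54.8% of all measured genes were lower and their median was -2.59, or -1.50 with the floor. Of these markers, 5 of the 14 listed had no count in low-gene barcode wells, among them Csf1r, Aif1 and Pf4. Of 9 in the position set 2 were lower, 1 as common, 1 higher and 5 in disagreement (median -0.87), against 14.6% lower and 47.3% higher over all genes there (median 1.78). Cd74, the invariant chain of MHC class II, had 590 and 1507 CPM there (14 of 45 and 28 of 67 wells).

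Smooth muscle markers were lower in 5 of 7 barcode genes and higher in none (median -2.91), near the 54.8% lower and the median of -2.59 over all measured genes of that set. Acta2, smooth muscle actin, had 2996 and 5993 CPM there (8 of 14 and 28 of 39 wells), and Myh11, the smooth muscle myosin, 236.5 and 2640 CPM. In the position set Acta2 had 1567 and 664 CPM, but 1 low-gene well held 59.5% of its counts, and the log2 ratio of 1.239 turned to -3.14 without the wells of conflicting age. Endothelial markers split, with 4 of 8 barcode markers higher and 1 lower, where 20.9% of all measured genes were higher and 54.8% lower. They were led by Vcam1 (861 and 24.0 CPM, 4 of 14 and 2 of 39 wells), with 59.5% of its low-gene counts from 1 well. Vwf, the von Willebrand factor, had 9 counts in 3 low-gene barcode wells (59.1 and 57.8 CPM) and 0 counts in low-gene position wells, at least 2.94-fold lower than in kept wells. Members measured through the low-gene wells alone had to be higher there, so these list counts support no change.

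Red blood cell transcripts are a usual component of free RNA in dissected tissue. All 4 globin genes measured in the barcode set were higher in low-gene wells, where 20.9% of all measured genes were. Among them were Hba-a1 at 3620.1 and 682 CPM (7 of 14 and 29 of 39 wells) and Hbb-bs at 4330 and 584 CPM (6 and 12 wells). One low-gene well held 69.7% of the Hba-a1 counts. Hba-a1 had a mean of 39.4 counts per low-gene and 45.1 per kept well, 1.145 times as many and the lowest such gap among the 63 widespread barcode genes. Position globins disagreed between the averages (Hba-a1 log2 0.91 by sums and -1.02 by per-well means), and 68.1% of its low-gene counts came from 1 well. Igkc, the immunoglobulin kappa constant region of plasma cells, had 590 and 167.7 CPM in the position set (8 of 45 and 30 of 67 wells). Barcode wells had 302.2 CPM in low-gene and 144.99 CPM in kept wells, counted in 4 and 18 wells, with 91.3% of the low-gene counts from 1 well. No marker of neurons, oligodendrocytes or choroid plexus and ependyma reached the level to be measured in either set.

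Ptgds in the low-gene wells of the other groups is given beside the kept wells of those groups. In the position set Ptgds was counted in 8 of 41 low-gene wells of the anterior 18-month group (19.5%, interval 8.82% to 34.9%), 6 of 51 of the posterior 3-month group (11.8%, 4.44% to 23.9%) and 1 of 20 of the anterior 3-month group (5%, 0.127% to 24.9%), against 37 of 45 here. Without the wells of conflicting age these were 6 of 31 in the anterior 18-month group and 17 of 21 here. Summed levels in those low-gene wells were 733, 953 and 193.3 CPM, against 9712 CPM. Their median totals of 1790, 1246 and 1884.5 counts were lower than the 2773 here. Thinned to 1191 counts, with 14, 25 and 6 wells left out, the shares were 19.9%, 8.15% and 0%, against 83.8%, so the order held at matched total counts. Kept position wells had Ptgds in 27 of 57, 13 of 49 and 1 of 15 wells of those groups, at 370.98, 181.8 and 1.73 CPM. Here it was in 67 of 67 kept wells, at 4856 CPM. By share of wells the kept wells thus had the same order of groups, which was not particular to poor wells. In every group Ptgds was higher as CPM in low-gene than in kept wells. The log2 ratios were 0.98, 2.38 and 6.15 in the order above, the last of them resting on 1 well on each side.

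Barcode wells of the 3-month groups also had Ptgds in fewer of their low-gene wells. Ptgds was in 9 of 19 low-gene wells of the posterior 3-month group (47.4%, 24.4% to 71.1%; 1403 CPM) and 5 of 10 of the anterior 3-month group (50%, 18.7% to 81.3%; 1030.0 CPM), against 13 of 14 and 16070.4 CPM here. The intervals of the shares overlapped with that of the posterior 18-month wells. They take the wells of 1 pool as independent draws and test no difference between groups. After thinning to 5589 counts 2 of the anterior and 9 of the posterior 3-month low-gene wells remained, with shares of 49.9% and 56.9%, against 90%. In kept wells of those groups Ptgds had 81.7 and 215.5 CPM in 1 of 16 and 7 of 18 wells.

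**Figure D5:**
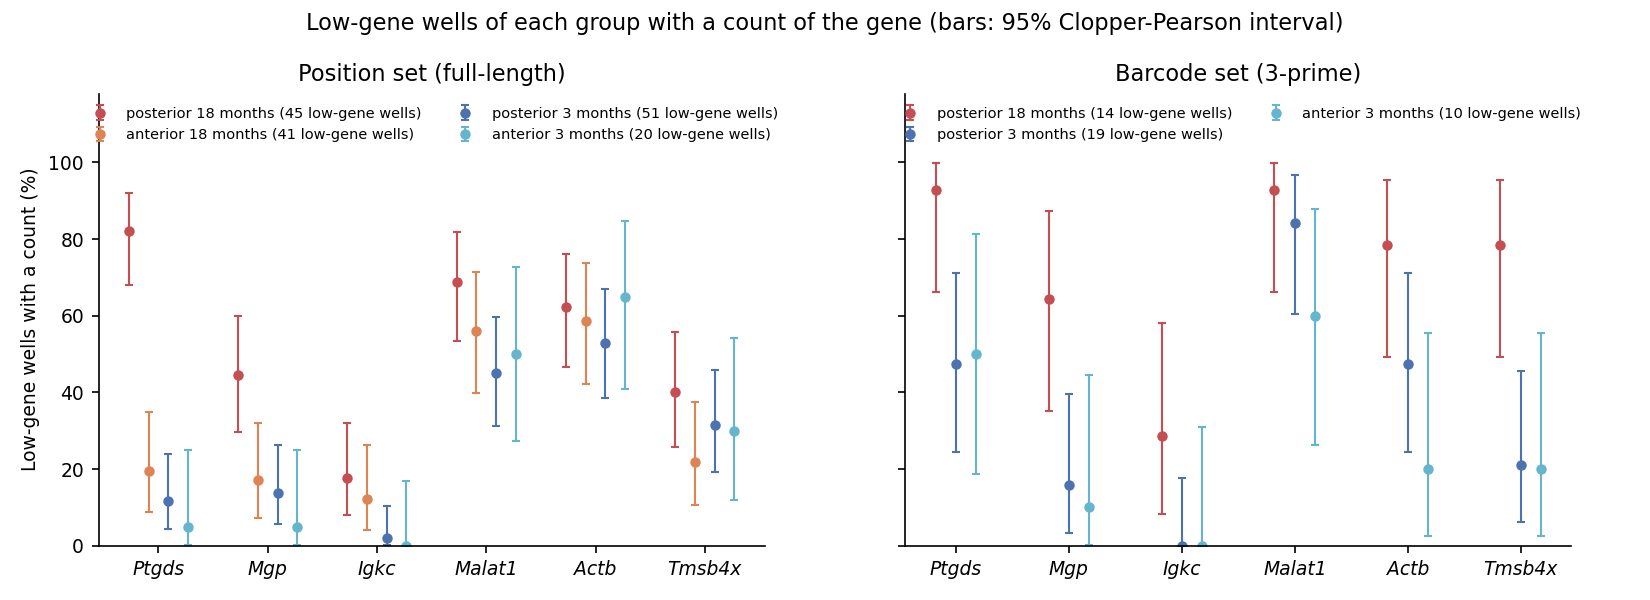
Percent of low-gene wells with a count (y axis) of 6 genes in each group, position set on the left and barcode set on the right. Bars are 95% Clopper-Pearson intervals that take the wells of 1 pool as independent draws, with no thinning. Ptgds stands at 82.2% in posterior 18-month position wells and at 5% to 19.5% in the other groups of that set. There Malat1 ranges from 45.1% to 68.9% and Actb from 52.9% to 65% over all groups.

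Ptgds was not alone in having its highest share of low-gene wells here. In the position set Mgp, Igkc, Malat1, Tmsb4x, Rn7s2, Fth1, Apoe, Hba-a1 and Col1a2 did too. Actb, Acta2, C1qb and Vwf had larger shares elsewhere. These shares are not thinned, and the low-gene position wells here had the highest median total. Thinned to 1191 counts, Tmsb4x was not highest here, with 33.5% against 36.1% in the anterior 3-month group. Malat1 was in 31 of 45 wells here and in 23 of 41, 23 of 51 and 10 of 20 in the groups named next. Among barcode wells Tmsb4x was in 11 of 14 low-gene wells here and 4 of 19 of the posterior 3-month group (thinned shares 79.65% and 22.11%). Low-gene position wells with Mgp numbered 20 of 45 here, 7 of 41 in the anterior 18-month, 7 of 51 in the posterior 3-month and 1 of 20 in the anterior 3-month group, and thinned shares were 48.3%, 25.0%, 12.3% and 7.14%. Igkc was in 8 of 45 low-gene wells here and 5 of 41 in the anterior 18-month group, but in 1 of 51 and 0 of 20 at 3 months, where 0 of 20 has an upper bound of 16.8%. The Mgp interval was 29.6% to 60% here and 7.15% to 32.1% in the anterior 18-month group. In the 3-month groups it reached 26.3% and 24.9%. These intervals take the wells of 1 pool as independent draws. Neither overlap nor a gap between them tests a difference between groups. Actb was in 28 of 45, 24 of 41, 27 of 51 and 13 of 20 low-gene wells. Mitochondrial shares of low-gene against kept wells were 10.4% and 2.398% in the anterior 18-month group of the position set. They were 16.4% and 2.152% in its posterior 3-month group, so these transcripts took a larger share of poor wells there as well.

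Chip position gave no clear pattern. Of the 45 low-gene position wells, 16 lay next to a kept well and 14 of these had Ptgds, at a summed 8385 CPM, while 23 of the 29 farther wells had it, at 10098 CPM. The median distance to the nearest kept well was 2 positions for low-gene and for kept wells. By the number in the well titles, which the labels do not explain, Ptgds was in 21 of 25 low-gene wells of number 1 (11109 and 6054 CPM, log2 0.88) and 16 of 20 of number 2 (8488 and 4093 CPM, log2 1.05). Wells whose age field conflicts had Ptgds in 20 of 24 low-gene wells, at 11060.5 and 3378 CPM in low-gene and kept wells, and the others in 17 of 21, at 7986 and 6011 CPM.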

How the data were processed

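One table of whole-number counts, with 39179 Ensembl gene IDs and 472 columns, was used as the authors deposited it. The submitters' processing notes name STAR 2.7.0a and mm10. How reads were counted, and with which strand setting and annotation, is not stated, so overlapping genes may share reads. Per the file headers 1 column is 1 well. In 11 columns no gene is at 0. These were treated as a score, not as the counts the authors deposited elsewhere, and left out. One was a posterior 18-month column, with a minimum of 1. Symbols were found for 37607 IDs, and gene positions are those of GENCODE M21 (GRCm38).

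Wells were grouped by title. Members and gene lists were chosen with earlier results of these data known. Counts were summed over low-gene and kept wells within each library set and scaled to CPM. A pseudocount of 1 CPM entered each log2 ratio, and ratio intervals are conditional binomial on the counts. Shares of wells have Clopper-Pearson intervals, which take wells as independent draws. Thinned shares are hypergeometric expectations at the lower quartile of low-gene totals. For bounds a count of 0 was set to 3 counts over the group. Scripts (Python, numpy 2.4.6, pandas 2.3.3, scipy 1.17.1) were tested on simulated data. Named genes were, per set, the 12 as common in most low-gene wells, the 12 lowest and 12 highest ratios that met the spread rules, up to 2 extremes at each end of a list, and 10 fixed genes. Satellite-like, mitochondrially encoded, ribosomal protein, predicted and unnamed genes were described as groups. Widespread genes and those as common in both sets were picked as examples after their values were seen. Alternatives were other gene limits, totals, filters, averages and subsets of wells.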

Additional observations from a re-analysis of the deposited data

How the results depend on the processing

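With 1 pool of mice per group no value here has a replicate check, and shallow wells limit what a count of 0 shows. No paired analysis was possible because wells share no replicate and their numbers follow accession order only. The cause of the changes below was not tested, except that a stricter filter or fewer wells leaves fewer genes.

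Of 2136 measured position genes 12.9% were as common, 14.6% lower and 47.3% higher. The number of genes behind these shares moved over 1.5-fold as follows. They were 12.0%, 33.2% and 33.1% of 5066 genes on totals without satellite-like genes, 11.8%, 31.1% and 35.5% of 4847 also without mitochondrially encoded genes, 20.4%, 3.29% and 52.4% with a minimum of 200 CPM, and 13.1%, 58.7% and 11.5% of 24362 with none. With 2 minima chosen after the data were seen, they were 40.8%, 2.04% and 28.6% of 49 at 1000 CPM, and 8.16% of 870 were higher with 50 CPM in kept wells alone. Genes as common made up 8.98% of 1848 at a limit of 300 genes, 19.6% by summed CPM alone, 30.2% by the mean of per-well CPM, 8.78% without conflicting ages and 8.35% in title number 2. Genes lower made up 10.6% at a limit of 1000 genes and 20.7% in title number 1. The barcode shares of 11.5%, 54.8% and 20.9% of 3760 genes became 7.36%, 37.1% and 45.4% of 571 at 300 genes, 17.6%, 30.7% and 37.2% of 1071 at 200 CPM, 10.4%, 67.7% and 10.7% of 11291 with no minimum, and 31.5%, 13.4% and 45.7% at 1000 CPM. With 50 CPM in kept wells alone 7.0% of 3086 were higher, and 19.2% (limit of 1000 genes) and 18.4% (mean of per-well CPM) were as common.

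Shares of low-gene counts moved at 300 genes, at 1000 genes and as a median per well. Mitochondrial genes took 8.04%, 6.14% and 5.33% in the position set and 34.2%, 35.1% and 34.9% in the barcode set, and the 12 satellite-like genes 54.7%, 47.6% and 40.2%, against 49.6%. Ptgds was in 100% of the 3 barcode wells under 300 genes.

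Of 718 alternative values of named genes, over 76 pairs of gene and set, 21 turned the direction of a ratio that had passed 2-fold. At 300 genes the position log2 ratios of Acta2 (-0.81), Ahnak (-0.79), H3f3b (-0.95), Igkc (-0.84) and Mgp (-0.24) reversed, as did the barcode ratios of Acta2 (0.83), Atp6v0e (-8.30), Igkc (-1.26), Myl9 (1.03), Slc4a10 (1.89) and Tmem50a (-6.51). At 1000 genes position Igfbp5 (0.75) and barcode Col1a2 (0.81) and Malat1 (0.48) reversed. Without conflicting ages position Acta2 (-3.14), H3f3b (-0.47) and Ldha (0.22) reversed, and in title number 1 Igfbp5 (0.091). By the mean of per-well CPM barcode Igkc (-2.48) and Slc4a10 (0.88) reversed, and Igkc (-2.26) did so without the deepest well of each kind.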
